A study of Homo sapiens with 10 samples.

Results

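Interferon-stimulated genes (ISGs) were followed through poly(A) RNA-seq of MCF10A cells, an immortalized and non-transformed human mammary epithelial line. A gene was taken when its symbol in the deposited tables was 1 of the 39 listed ISGs, and all 39 had a row, among 26256 genes of the first table and 55736 of the second. The first table held 2 libraries of parental MCF10A cells and 2 of G12V cells, which are MCF10A cells transduced with lentivirus for the HRas G12V oncogene together with a GFP vector, selected in hygromycin and carried as a population through an arrest of growth into transformed growth. The second table held MCF10A cells given 10 µM Nutlin-3a, an inhibitor of the MDM2-p53 interaction that stabilizes p53, for 4 h (3 libraries) or DMSO, its solvent (3 libraries). The sources used here name no vector control for the parental cells, so the virus, the selection and the oncogene cannot be told apart in the first comparison. The study calls its replicates biological without saying how they were grown apart, and p-values measure only the spread between these libraries.

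Interferons are secreted proteins that cells release when they sense viral nucleic acid. They act through surface receptors, the JAK kinases and a complex of transcription factors that includes STAT2 and IRF9, which binds the interferon-stimulated response element (ISRE) in the promoters of many genes. A different element, GAS, is bound by STAT dimers, and IRF family members can bind the ISRE with no STAT. The products sense viral RNA, block viral entry, translation and release, and feed back on the pathway, and many epithelial lines express part of the set at a low level with no interferon added.

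The start sites of 31 of the 39 genes had a window in RefSeq's promoter table (GRCh38.p14), which runs from 250 bases before to 50 after the start. DDX58 was matched there as RIGI, and IRF7, IFIT2, OAS2, OASL, MX2, IFITM2, USP18 and TRIM22 had no entry. An ISRE-type match, written as GAAA, any 2 bases and GAAA on either strand, lay in the windows of 20 of the 31 genes (64.5%, exact binomial 95% interval 45.4 to 80.8%) and of 4.38% of all 27305 genes with a window. The same letters with C after the second GAAA were found in 18 of the 31 (58.1%) against 0.952% of all genes. A GAS-type match, written as TTC, any 3 bases and GAA, which can share letters with an ISRE-type match, was found in 9 of the 31 (29.0%) against 9.38% of all genes. The 95% interval treats the genes as independent draws, but they are a chosen list in which PARP9 and DTX3L share a match. A match is a description of the letters and not a measured binding site.

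Of the 7 genes called different between G12V and MCF10A cells below, 6 had a window and 4 of these held an ISRE-type match, while SAMD9L and UBE2L6 held neither match and OAS2 had no window. Parts of the windows of these 4 genes are shown, with ISRE-type matches alone in capitals, and 3 of the genes were higher and HERC5 was lower. Each sequence ends at the base before the annotated start, 5′ to 3′ on the strand of the gene. ISG15 is at chr1:1013347-1013496 (+), IFI44L at chr1:78620248-78620447 (+), BST2 at chr19:17405631-17405780 (-) and HERC5 at chr4:88456969-88457118 (+).
ISG15: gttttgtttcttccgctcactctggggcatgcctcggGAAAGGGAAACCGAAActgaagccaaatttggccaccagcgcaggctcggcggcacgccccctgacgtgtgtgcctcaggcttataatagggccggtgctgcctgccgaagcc
IFI44L: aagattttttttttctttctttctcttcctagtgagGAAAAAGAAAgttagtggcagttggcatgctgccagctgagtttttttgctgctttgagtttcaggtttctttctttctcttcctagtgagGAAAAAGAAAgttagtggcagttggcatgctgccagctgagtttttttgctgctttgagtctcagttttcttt
BST2: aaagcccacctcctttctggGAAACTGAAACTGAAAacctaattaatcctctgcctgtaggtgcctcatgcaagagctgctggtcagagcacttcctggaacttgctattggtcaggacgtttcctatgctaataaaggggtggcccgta
HERC5: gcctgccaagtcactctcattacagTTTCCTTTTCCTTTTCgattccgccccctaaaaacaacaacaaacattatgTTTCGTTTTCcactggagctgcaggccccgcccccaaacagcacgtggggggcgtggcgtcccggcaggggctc

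In ISG15 and BST2 overlapping copies of the element formed 1 block, from -113 in ISG15 and from -130 in BST2, counted from the start. In IFI44L the match recurred at -164 and -73 within a repeated stretch. HERC5 carried its matches on the opposite strand, at -125, -119 and -74. PARP9 and DTX3L, which are transcribed away from each other, shared 1 match at chr3:122564332-122564341, which begins 41 bases before the start of PARP9 and, on the other strand, 6 before that of DTX3L, whose start it spans. It is shown with its flanks, at chr3:122564322-122564351 on the minus strand.
PARP9: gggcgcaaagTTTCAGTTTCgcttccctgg

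**Figure D1:**
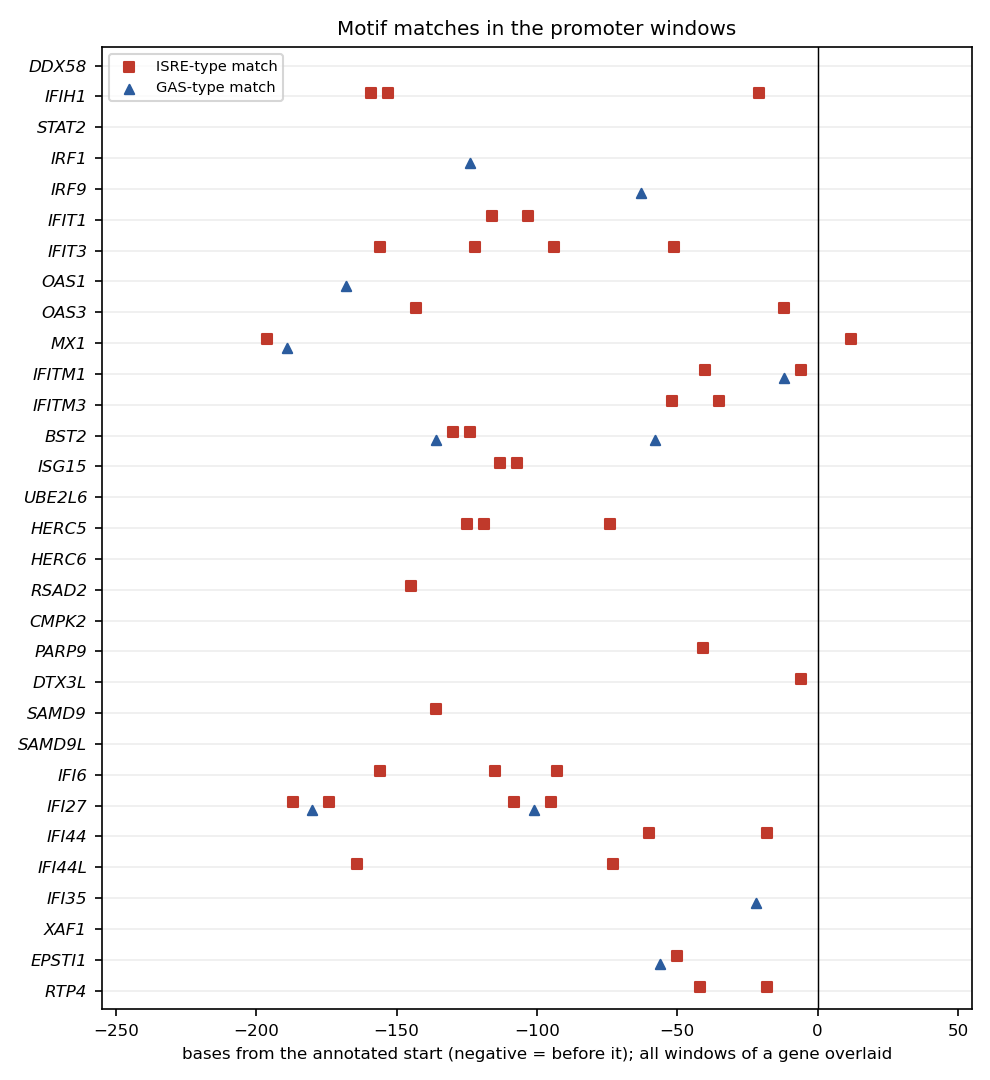
Positions of ISRE-type matches (squares) and GAS-type matches (triangles) in the promoter windows of the 31 genes with an entry, as the distance in bases from the annotated start, with all windows of a gene overlaid. Nearly all matches lie before the start, and 20 genes carry at least 1 square.

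Library totals were 21538593 to 23683975 counts in the first table and 15453226 to 17378734 in the second, and 3 counts in a library are worth 0.128 to 0.197 CPM (the count of a gene relative to its TMM-scaled library size). HRAS, which checks the G12V label, had 72.6 and 65.9 CPM in MCF10A and 631 and 515 CPM in G12V cells. MDM2, a target of p53 that checks the treatment, had 102 to 122 CPM with DMSO and 509 to 814 CPM with Nutlin-3a. The epithelial markers of the parental line were lower in G12V cells. Of 7 markers 6 (KRT5, KRT14, KRT17, EPCAM, CDH1 and TP63) passed the test, and KRT18 did not. All 7 together summed to 6637 to 8243 CPM in MCF10A and to 1152 to 1429 CPM in G12V cells. Of 6 immune markers, PTPRC and CD3E had at most 1 read in any library of this table, while CD68, a lysosomal protein of macrophages that other cells also make, had 12.3 and 12.1 CPM in MCF10A and 37.3 and 72.7 CPM in G12V cells. The 6 immune markers summed to 32.0 to 50.7 CPM in MCF10A and to 60.6 to 114 CPM in G12V cells. Of these CD68 alone passed the test. CD14 had 18.0 and 37.0 CPM in MCF10A and 21.7 and 39.6 CPM in G12V cells, which overlap. The 4 endothelial markers summed to 8.09 to 32.2 CPM in MCF10A and to 7.91 to 8.79 CPM in G12V cells. Of 6 fibroblast markers, which summed to 37.4 to 64.7 and to 53.4 to 59.9 CPM, LUM alone passed the test, with 1 and 0 reads in MCF10A and 28 and 27 in G12V cells. The part of these marker changes in the ISG results was not tested.

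Between G12V and MCF10A cells the ISGs did not move as 1 block. A gene was called differentially expressed (DE) where edgeR's quasi-likelihood test over all 14376 tested genes gave it an adjusted p below 0.05 and its log2 fold change exceeded 0.5 in either direction. Log2 fold changes below are G12V over MCF10A, and ± is then the standard error (SE). Of the 39 ISGs 36 had enough reads to be tested, and 7 were DE (19.4%), where 11% of all tested genes were. IFI44L, SAMD9L, ISG15, BST2 and UBE2L6 were higher in G12V cells, which is 5 of 36 beside 5.01% of all genes, and OAS2 and HERC5 were lower, which is 2 of 36 beside 5.95%. The median log2 fold change was 0.34 over the 36 ISGs and -0.0011 over all genes. The ISG median was 0.12 without MCF10A replicate 1 and 0.093 without G12V replicate 2. Setting CMPK2, which is near 0 reads in G12V cells, at its bound could not move the median of 0.34, as the gene stays far below it. The groups did not overlap for 22 of the 36, 15 of them higher and 7 lower, where 54.8% of all genes had groups that did not overlap and 27.5% were also higher. The absolute log2 fold change was above 1 in 13 ISGs, where 17.7% of all genes passed that value. In bulk RNA fewer expressing cells and less RNA per cell cannot be told apart.

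DESeq2 called 6 ISGs higher, beside 7.73% of all genes, and 3 lower, beside 8.32%, and edgeR's exact test called 8 higher, beside 8.56%, and 4 lower, beside 9.08%. The omission of MCF10A replicate 1 left 0 of these 7 calls, and 0 DE genes of all genes, though 2830 genes then had an unadjusted p under 0.05. IFI44L and BST2 were DE under each of the other alternatives run. The other calls also rested on further libraries: SAMD9L and OAS2 were not DE without MCF10A replicate 2 (adjusted p = 0.114 and 0.198, edgeR), UBE2L6 not without G12V replicate 2 (adjusted p = 0.0760), and ISG15 and HERC5 not without either of these (adjusted p of 0.0517 to 0.0905).

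**Figure D2:**
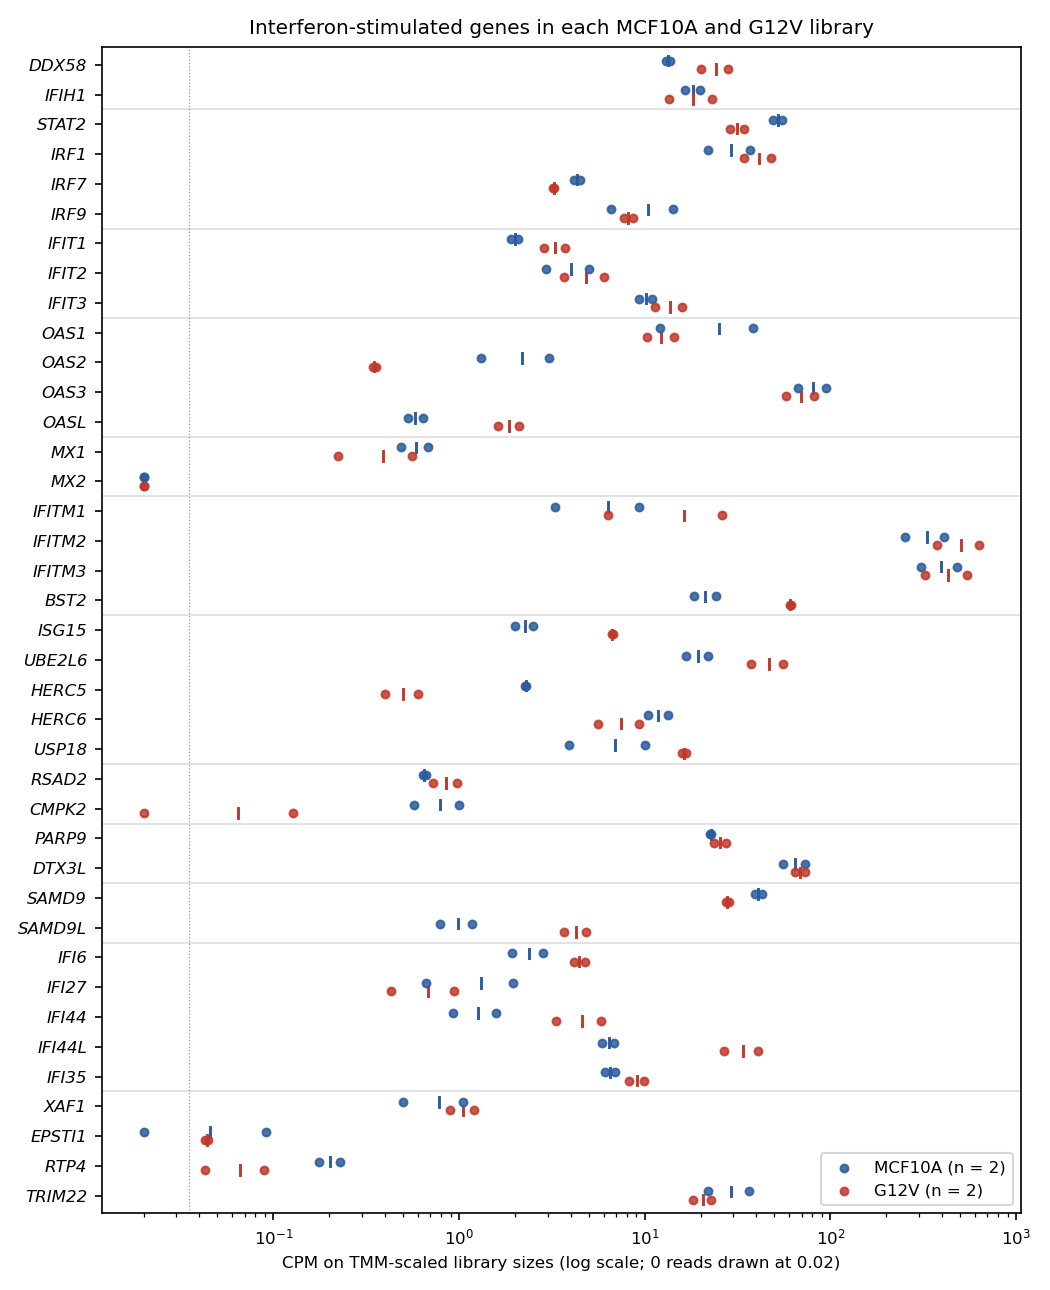
Level of each of the 39 genes in each library of the first table, in CPM on a log axis, with MCF10A in blue, G12V cells in red, 1 point per library and a tick at the mean of 2, and genes grouped by role. The blue and red points are apart for IFI44L, SAMD9L, ISG15, BST2 and UBE2L6 (red to the right) and for OAS2 and HERC5 (red to the left), and overlap for genes such as OAS3, IFITM3 and IFIH1.

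Among the virus sensors, DDX58, the gene of the RNA sensor RIG-I, had 13.0 and 13.7 CPM in MCF10A and 20.1 and 28.2 CPM in G12V cells. Its groups were apart (log2 fold change 0.85 ± 0.26), but it missed the threshold (edgeR adjusted p = 0.0966). In a lifted GENCODE transcript set, which is not the annotation that was counted, 89.1% of its 50-base windows were shared with a second gene, while no other gene overlapped it in either deposited table. IFIH1, the gene of the sensor MDA5, had 16.4 and 19.9 CPM in MCF10A against 13.5 and 23.1 CPM in G12V cells, and the groups overlapped.

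None of the 4 transcription factors was DE. STAT2, the subunit through which the ISRE complex activates transcription, had 48.9 and 54.9 CPM in MCF10A and 28.9 and 34.2 CPM in G12V cells (log2 fold change -0.72 ± 0.20, edgeR adjusted p = 0.0786). It was DE in DESeq2 (adjusted p = 0.0444) and in edgeR's exact test (adjusted p = 0.0436). IRF9, the subunit that contacts the DNA, had 6.59 and 14.2 CPM in MCF10A and lay between them in G12V cells, at 7.70 and 8.61 CPM. IRF7, the factor that amplifies interferon production, had 4.50 and 4.14 CPM in MCF10A and 3.21 and 3.26 CPM in G12V cells, and IRF1, an activator induced mainly through GAS, had 21.9 and 36.7 against 47.9 and 34.2 CPM.

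IFIT1, IFIT2 and IFIT3, which bind viral RNA and block its translation, all had positive log2 fold changes of 0.28 to 0.72, and none was DE. The groups of IFIT1 did not overlap, with 2.09 and 1.89 CPM in MCF10A and 2.86 and 3.70 CPM in G12V cells (edgeR adjusted p = 0.278).

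The OAS family, whose enzymes make the oligoadenylates that activate RNase L, differed among its members. OAS2 fell from 1.32 and 3.04 CPM to 0.342 and 0.357 CPM (log2 fold change -2.62 ± 0.57, edgeR adjusted p = 0.0393). Both G12V libraries were under both MCF10A libraries, which themselves differed. OAS1, in a cluster with OAS2 on chromosome 12, had 12.1 and 38.2 CPM in MCF10A and 10.3 and 14.3 CPM in G12V cells, so that 1 parental library alone was high. The third gene of that cluster, OAS3, had 66.7 and 94.2 CPM against 82.0 and 57.8 CPM. OASL, a relative without the enzyme activity that enhances RIG-I signalling, went the other way, from 0.636 and 0.529 CPM to 1.62 and 2.1 CPM (log2 fold change 1.67 ± 0.41, edgeR adjusted p = 0.0565), and missed the threshold. It was DE in the exact test (adjusted p = 0.00663) and with a filter of 1 CPM in at least 2 libraries (adjusted p = 0.0473).

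Of the MX family, whose dynamin-like proteins trap viral particles, MX1 had 15 and 11 reads in MCF10A and 13 and 5 in G12V cells, and MX2 had 0 reads in all 4 libraries, which allows up to 0.136 CPM.

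Among the membrane factors BST2 stood out. BST2 (tetherin), on hg19 chromosome 19 from 17513748 to 17516457, holds budding virus at the cell surface. It had 18.4 and 24.1 CPM in MCF10A and 60.2 and 61.1 CPM in G12V cells, 2.85-fold higher (log2 fold change 1.51 ± 0.22, edgeR adjusted p = 0.0112). The IFITM proteins, which block fusion of viral and cell membranes, had overlapping groups. IFITM1 had 3.27 and 9.34 CPM in MCF10A and 6.33 and 26.1 CPM in G12V cells, with the second library high in either group. IFITM2 had 253 and 407 against 373 and 634 CPM, and IFITM3 had 308 and 481 against 324 and 541 CPM. In the transcript set 38.9% of the 50-base windows of IFITM1, 12% of those of IFITM2 and 2.87% of those of IFITM3 were shared with other genes.

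Of the 5 genes of the ISG15 system 3 were DE, beside 11% of all genes, and they did not share a direction. All 3 calls were lost without MCF10A replicate 1, and ISG15 and HERC5 were DE in 1 of the 4 fits that leave out a library. ISG15 is a ubiquitin-like protein that is attached to other proteins; UBE2L6 is its conjugating enzyme, HERC5 its main ligase in human cells, HERC6 a relative of HERC5, and USP18 the protease that removes it and also dampens the interferon receptor. ISG15, on hg19 chromosome 1 from 948847 to 949919, had 2.0 and 2.51 CPM in MCF10A and 6.63 and 6.73 CPM in G12V cells, 2.96-fold higher (log2 fold change 1.56 ± 0.33, edgeR adjusted p = 0.0347). UBE2L6, on chromosome 11 from 57319128 to 57335803, had 16.7 and 22 CPM in MCF10A and 37.2 and 55.7 CPM in G12V cells, 2.40-fold higher (log2 fold change 1.26 ± 0.28, edgeR adjusted p = 0.0426). With no filter on low counts the adjusted p of UBE2L6 was 0.0520.

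HERC5, on chromosome 4 from 89378268 to 89427319, moved against ISG15 and UBE2L6. It had 2.27 and 2.29 CPM (50 and 52 reads) in MCF10A and 0.599 and 0.401 CPM (14 and 9 reads) in G12V cells (log2 fold change -2.17 ± 0.42, edgeR adjusted p = 0.0268). The neighbouring HERC6 had 13.3 and 10.4 CPM in MCF10A and 9.28 and 5.62 CPM in G12V cells (log2 fold change -0.67 ± 0.34, edgeR adjusted p = 0.297). USP18 had 10.0 and 3.92 CPM in MCF10A and 15.8 and 16.7 CPM in G12V cells. Its groups were apart, but it was not DE (edgeR adjusted p = 0.159), also not with any 1 library left out. With the replicate number as a block USP18 was DE (log2 fold change 1.34, edgeR adjusted p = 0.00561). That fit called 12 ISGs higher, beside 14.4% of all genes, and 7 lower, beside 14.5%. IFITM1 and IFITM2 were also among those higher, and OAS1 was among those lower. In the transcript set 27.0% of the 50-base windows of USP18 were shared with other genes, 26.4% with USP41.

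RSAD2 (viperin) makes a chain-terminating nucleotide from the CTP that its neighbour CMPK2 supplies. RSAD2 had 14 and 15 reads in MCF10A and 17 and 22 in G12V cells. CMPK2 had 22 and 13 reads in MCF10A and 3 and 0 in G12V cells, at least 6.0-fold lower against 3 reads a library, and was not DE (edgeR adjusted p = 0.0675). In the exact test the adjusted p of CMPK2 was 0.00102.

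PARP9 and DTX3L, partners in a complex that modifies histones, were close to level. PARP9 had 22.9 and 22.5 CPM in MCF10A and 27.4 and 23.7 CPM in G12V cells (log2 fold change 0.17 ± 0.21), and DTX3L had 55.6 and 72.8 against 64.5 and 72.9 CPM (log2 fold change 0.10 ± 0.21).

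SAMD9 and SAMD9L, paralogs that lie side by side on chromosome 7 and restrict poxviruses and cell growth, had log2 fold changes of opposite sign. SAMD9L, from 92759367 to 92777701, had 1.18 and 0.793 CPM in MCF10A and 3.68 and 4.82 CPM in G12V cells, 4.30-fold higher (log2 fold change 2.1 ± 0.41, edgeR adjusted p = 0.0268). SAMD9 had 42.6 and 39.2 CPM in MCF10A and 27.3 and 28.4 CPM in G12V cells (log2 fold change -0.55 ± 0.19, edgeR adjusted p = 0.139). The difference between the genes of such a pair was not tested.

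The IFI genes held the largest fitted rise among the 36 ISGs tested. IFI44L, on chromosome 1 from 79086067 to 79111830, is a feedback regulator of the interferon response. It had 5.91 and 6.87 CPM in MCF10A and 26.8 and 40.8 CPM in G12V cells, 5.29-fold higher (log2 fold change 2.40 ± 0.30, edgeR adjusted p = 0.00725). Its paralog and neighbour IFI44 had 1.59 and 0.925 CPM in MCF10A and 5.81 and 3.35 CPM in G12V cells (log2 fold change 1.86 ± 0.47), and its adjusted p was 0.0604 in edgeR and 0.0121 in DESeq2. IFI6, a mitochondrial and endoplasmic reticulum protein that limits cell death, had 2.82 and 1.94 against 4.75 and 4.15 CPM (edgeR adjusted p = 0.187). IFI35 had 6.91 and 6.12 against 9.92 and 8.25 CPM. IFI27 had 43 and 15 reads in MCF10A and 10 and 21 in G12V cells, which overlap.

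Of the remaining effectors, XAF1, a pro-apoptotic protein, had 11 and 24 reads in MCF10A and 21 and 27 in G12V cells. TRIM22, an antiviral ubiquitin ligase, had 21.9 and 36.5 against 18.3 and 22.8 CPM. EPSTI1 had at most 2 reads in a library. RTP4 had 5 and 4 reads in MCF10A and 1 and 2 in G12V cells. EPSTI1 and RTP4 were not tested.

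The median spread between libraries of 1 group, not matched for level, was larger over the ISGs than over all genes. Some ISGs had few reads, and the part of low counts in this spread was not tested. The median log2 range between the replicates, with 0.1 CPM added, was 0.41 over the 36 tested ISGs and 0.29 over all genes in MCF10A, and 0.43 and 0.32 in G12V cells. IFI27, IFITM1, IRF9, OAS1, OAS2 and USP18 differed by more than 1 on this scale between the MCF10A libraries (16.7% of the ISGs, beside 6.66% of all genes). Between the G12V libraries 3 ISGs did (CMPK2, IFITM1 and MX1, 8.33%, beside 8.65% of all genes).

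**Figure D3:**
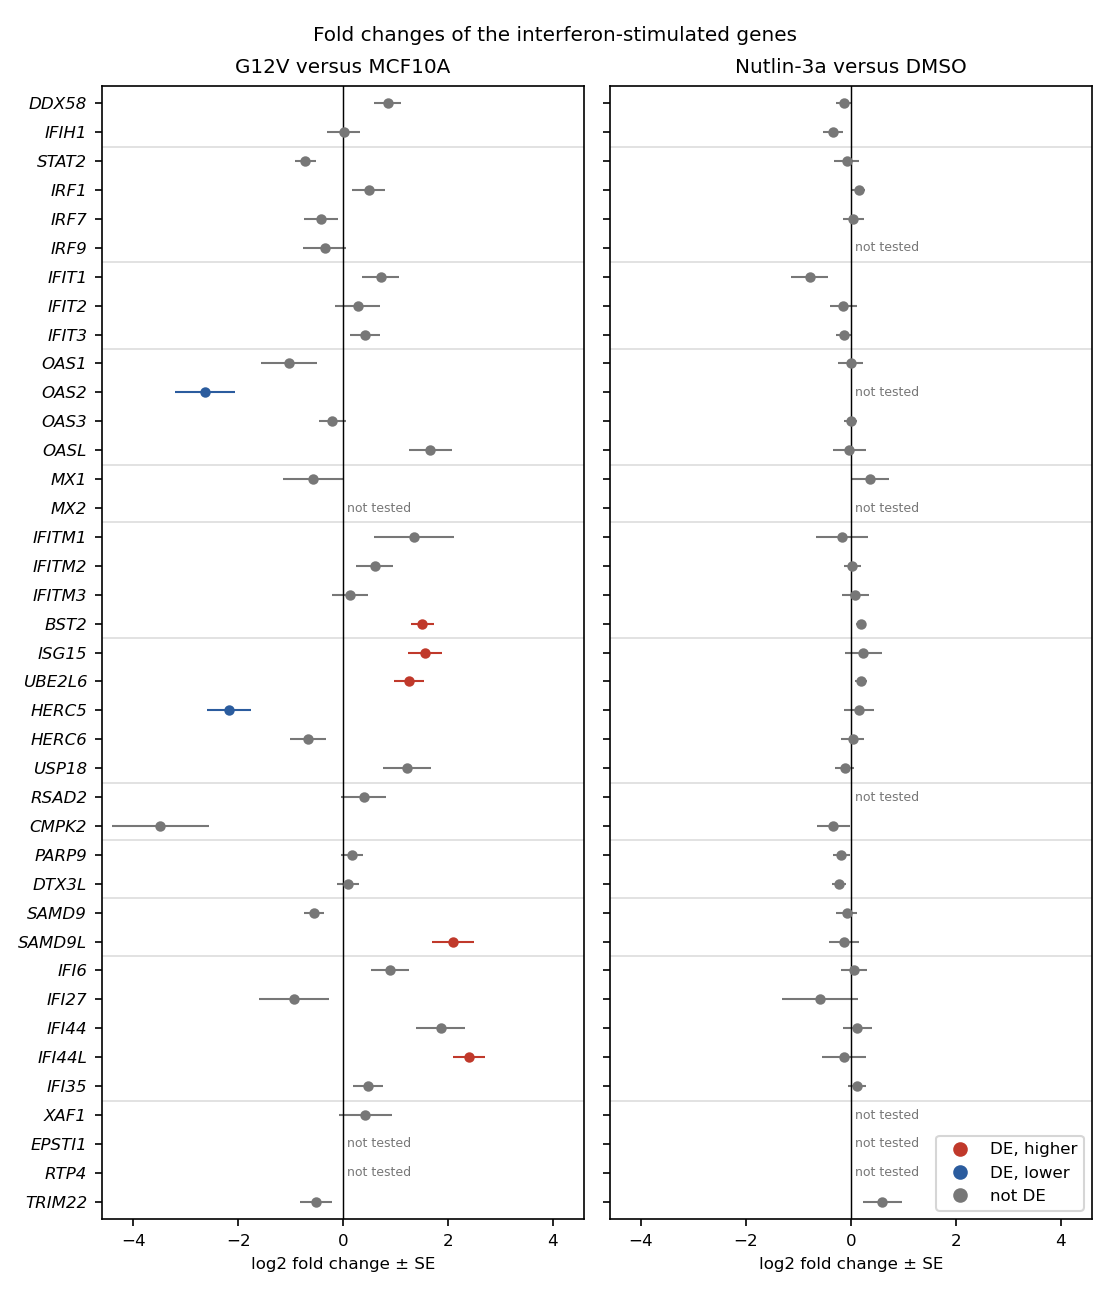
Log2 fold change with its SE for each gene in G12V against MCF10A cells (left, 36 genes tested) and with Nutlin-3a against DMSO (right, 32 genes tested), on the same axis, with DE genes in red (higher) or blue (lower). The left panel spreads from -3.48 (CMPK2, a fitted value of a gene near 0 reads) to 2.40 (IFI44L), and the right panel from -0.79 (IFIT1) to 0.60 (TRIM22).

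The genes around the ISGs were read from 5 lists with 88 genes in all, of which 66 were tested and 7 were DE (10.6%, beside 11% of all genes). DESeq2 and edgeR's exact test both called 16 of the 66, beside 16% and 17.6% of all genes. The 21 interferon genes summed to 7 to 11 reads in each of the 4 libraries, most of them from IFNE, an interferon made by epithelia without infection (10 and 6 reads in MCF10A, 9 and 8 in G12V cells). IFNB1, IFNG, IFNL1, IFNL2 and IFNL3 had 0 reads in every library, and 17 of the 21 interferons did.

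Of 10 receptor and JAK-STAT genes, JAK2, a kinase of the interferon gamma receptor, rose from 8.14 and 9.43 CPM to 20.4 and 24.3 CPM (log2 fold change 1.35 ± 0.25, edgeR adjusted p = 0.0230). IFNLR1, the specific subunit of the interferon lambda receptor, fell from 8.04 and 8.72 CPM to 2.91 and 2.90 CPM (log2 fold change -1.53 ± 0.30, edgeR adjusted p = 0.0287). IFNAR1 and IFNAR2, the receptor of type I interferon, had log2 fold changes of -0.07 and 0.42 and were not DE.

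None of the 12 genes of upstream sensing was DE, with log2 fold changes from -0.50 (MAVS) to 0.78 (IKBKE), and 3 of the 12 had an unadjusted p under 0.05, beside 25.6% of all genes. Among 6 negative regulators, PTPN6, the phosphatase SHP-1 that acts on JAK kinases, fell from 21.5 and 26.2 CPM to 5.99 and 10.1 CPM (log2 fold change -1.57 ± 0.33, edgeR adjusted p = 0.0337). SOCS3, which blocks JAK kinases, had 6.73 and 14.4 CPM in MCF10A and 30.0 and 30.4 CPM in G12V cells and missed the threshold (edgeR adjusted p = 0.0579). It was DE in DESeq2 (adjusted p = 0.00262), in the exact test, with library totals alone and in 3 of the 4 fits that leave out a library.

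Of 39 further interferon-induced genes, 38 were tested, of which 3 were higher and 1 was lower, beside 5.01% and 5.95% of all genes, with a median of 0.27 on the log2 scale beside -0.0011 over all genes. PSMB9 and PSMB8, subunits of the immunoproteasome that cuts peptides for MHC class I, both rose. PSMB9 went from 2.86 and 2.69 CPM to 13.6 and 23.6 CPM (log2 fold change 2.74 ± 0.37, edgeR adjusted p = 0.00895), and PSMB8 from 34.9 and 33.7 CPM to 63.8 and 61.2 CPM (log2 fold change 0.86, edgeR adjusted p = 0.0320). LGALS3BP, a secreted glycoprotein, rose from 189 and 240 CPM to 479 and 632 CPM. CXCL11, a chemokine that attracts T cells, had 22 and 42 reads in MCF10A and 1 and 0 in G12V cells, at least 10.9-fold lower against 3 reads a library (edgeR adjusted p = 0.0136). Without MCF10A replicate 1 none of these 7 pathway genes was DE (edgeR adjusted p of 0.109 to 0.187). IFNLR1, JAK2, PTPN6 and PSMB8 were not DE without MCF10A replicate 2 (0.0515 to 0.163), IFNLR1 and PSMB8 not without G12V replicate 2 (0.0535 and 0.0614), and PSMB8 not without G12V replicate 1 (0.0651).

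**Figure D4:**
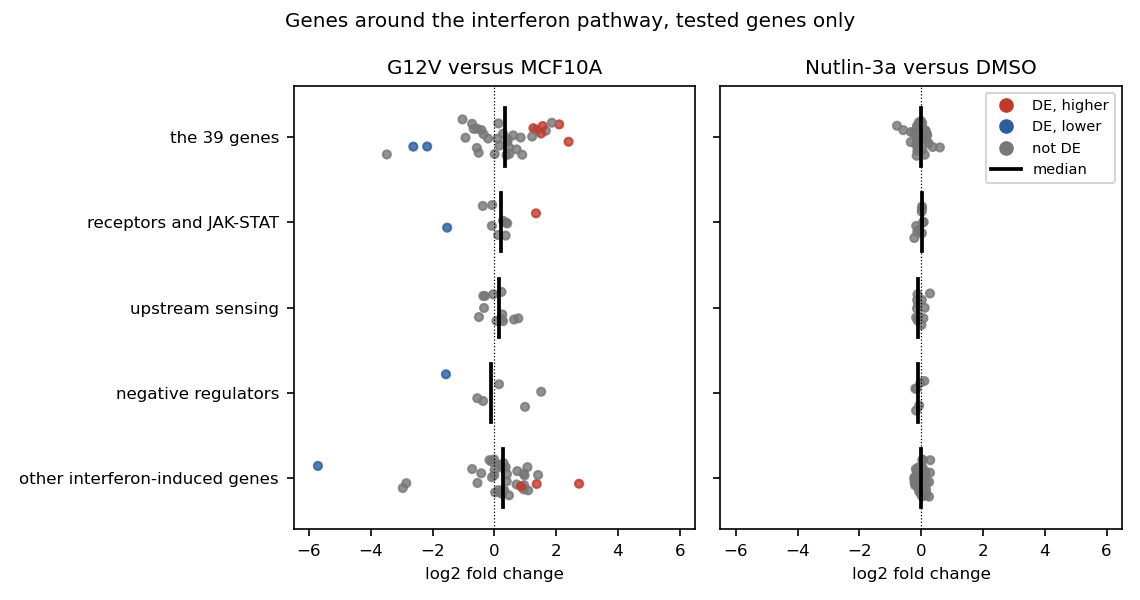
Log2 fold change of each tested gene in the 39 ISGs and in 4 of the lists around them, for both comparisons, with a bar at the median and DE genes in colour (the interferons are left out, as none was tested). In G12V cells the medians lie between -0.11 and 0.34 with single genes far to both sides, and after Nutlin-3a all genes lie within 0.79 of 0.

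The Nutlin-3a experiment asked about the same 39 genes when p53 was stabilized for 4 h in parental cells. The quasi-likelihood fit called 0 of the 32 ISGs tested, where it called 23 of all 13529 tested genes (0.17%). DESeq2 and the exact test also called 0 ISGs, beside 0.65% and 0.621% of all genes. No ISG reached an unadjusted p under 0.05, where 3.42% of all genes did. The lowest p was 0.0564, for IFIT1. The median log2 fold change was -0.014 over the 32 ISGs (-0.11 without Nutlin-3a replicate 3) and 0.0066 over all genes, and the median absolute value was 0.14 and 0.10. Standard errors ran from 0.10 (BST2) to 0.72 (IFI27), so a small change would not have been detectable in the genes with few reads. MX2, OAS2, EPSTI1, RTP4, XAF1, IRF9 and RSAD2 had too few reads to be tested. IRF9 had 3 to 11 reads a library in this table, whose annotation places another gene over its whole length.

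Libraries of both treatments with the same replicate number deviated together across genes and were taken as pairs. The sources used here do not state the pairing. In the fit with the number as a block TRIM22 was the 1 ISG that was DE, where 1.22% of all genes were and 0.702% were higher. TRIM22 is also a known target of p53. It had 9.74, 17.2 and 25.1 CPM with DMSO and 17, 25.3 and 36.7 CPM with Nutlin-3a, in the order of the replicates. The groups overlapped, but each treated library was above the control of the same number. The log2 difference was 0.80, 0.56 and 0.55 in the 3 pairs, and with the block its log2 fold change was 0.63 (edgeR adjusted p = 0.00752). Without the block it was 0.60 ± 0.36, at an unadjusted p of 0.135 in edgeR. In the annotation of this table TRIM22 lies within the span of TRIM5 and other genes, and TRIM5 had a log2 fold change of 0.28 with an unadjusted edgeR p of 0.0419.

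Over all 3 pairs 6 of the 32 ISGs were higher with Nutlin-3a (18.8%, beside 15% of all genes) and 8 were lower (25.0%, beside 17.7%). The 6 were BST2, IFI35, IRF1, ISG15, TRIM22 and UBE2L6, and the 8 were DDX58, IFIH1, IFIT1, IFIT2, IFIT3, IFITM1, PARP9 and USP18. All 3 IFIT genes were thus lower in each pair, but IFIT2 was nearly level in pair 2, with 49 reads with DMSO and 48 with Nutlin-3a. In the annotation of this table each IFIT gene lies wholly within the span of LIPA, as IFITM1 does within that of IFITM2. IFIT1 had 20, 11 and 18 reads with DMSO and 11, 7 and 8 with Nutlin-3a. BST2 and UBE2L6 were the only ISGs tested whose treated and control libraries did not overlap, where 8.07% of all genes did not. BST2 had 79.3 to 89.3 CPM with DMSO and 91.8 to 98.0 CPM with Nutlin-3a, a log2 fold change of 0.19 ± 0.10. UBE2L6 had 20.0 to 21.1 CPM and 22.5 to 24.1 CPM, also a log2 fold change of 0.19 ± 0.11. None of these differences passed the test across all genes.

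**Figure D5:**
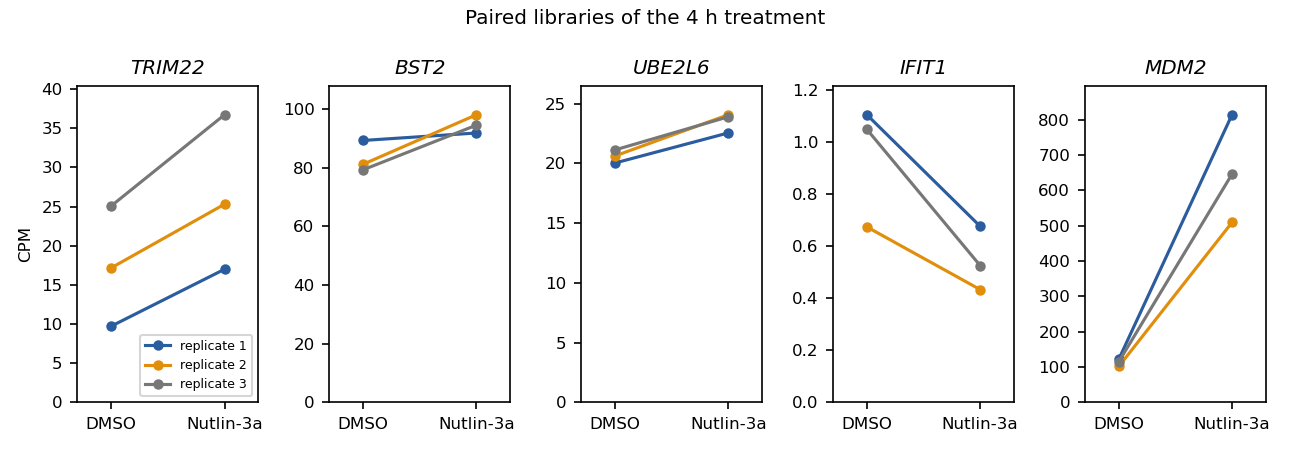
CPM of 4 ISGs and of the p53 target MDM2 with DMSO and with Nutlin-3a, with a line joining the libraries of each replicate number and each axis starting at 0. All 3 lines slope upward from different starting levels for TRIM22, slightly upward for BST2 and UBE2L6, downward for IFIT1 and steeply upward for MDM2.

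Of the genes around the ISGs, 0 of the 64 tested were DE with Nutlin-3a in any of the fits run. The quasi-likelihood fit called 0.17% of all genes and the fit with the block 1.22%. An unadjusted edgeR p under 0.05 was found for 2 of the 64 (TRIM5 and ZC3HAV1), beside 3.42% of all genes. The 21 interferons summed to 0 to 5 reads a library. The median spread between libraries of 1 treatment was again larger over the ISGs, and again not matched for level. The median log2 range was 0.45 over the 32 ISGs and 0.34 over all genes with DMSO, and 0.58 and 0.39 with Nutlin-3a.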

How the data were processed

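Poly(A) RNA was sequenced by the authors, aligned to hg19 with TopHat, counted per gene with HTSeq and deposited as raw read counts in 2 tables with different annotations, here analysed apart. The kit does not mark strand, and the treatment of reads that fit several genes is not given in the sources used here. Samples were grouped by their titles. The deposited counts of each table were fitted over all its genes in edgeR 4.0.16 (R 4.3.3), with filterByExpr, TMM factors, the quasi-likelihood F-test and Benjamini-Hochberg adjustment. Calls used the study's thresholds, 0.05 for the adjusted p and 0.5 for the size of the log2 fold change. A prior count of 0.125 was used, and SE is the size of the log2 fold change divided by the root of F. Where no library of a group had over 3 counts of a gene, its fold is a bound against 3 counts a library. Bounds, and the maximum that 0 reads allow, cover counting error alone, as PCR copies were not marked by molecular identifiers. The fits were run on simulated counts, with the same spread setting for all genes and no effect shared between libraries. That check covers the code and not the calls in these data.

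In the Nutlin-3a experiment the libraries that share a number in the labels deviated together from their group means (r = 0.62, 0.60 and 0.64 across genes). They were taken as pairs for this reason. Those of different numbers had r of -0.47 to -0.19. Deviations from a group mean sum to 0, so these negative values follow in part from the positive ones. Alternatives were DESeq2 1.42.0, the exact test, other scaling factors, other filters, a prior count of 2, no minimum fold change, the replicate block and the omission of each library. Promoter windows came from RefSeq (GRCh38.p14), and 50-base windows were compared between transcripts of GENCODE lifted to GRCh37. Python 3.11.15 with numpy 2.4.6, pandas 2.3.3, scipy 1.17.1 and matplotlib 3.10.9 was used for summaries. All 39 ISGs are named, with genes of the other lists that were DE or that a sentence is about. The ISGs and the lists were chosen with earlier results of these data known. Some genes of the lists are not reported here.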

Additional observations from a re-analysis of the deposited data

How the results depend on the processing

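Depth limits the genes with few reads, and 2 libraries a group limit every call in G12V cells. ISGs called higher in G12V cells numbered 5, and 8 with the exact test, while those called lower numbered 2, and 4 with the exact test. Of the pathway genes 7 were DE, and 16 both with DESeq2 and with the exact test. The omission of 1 library gave 0 to 7 higher and 0 to 3 lower ISGs, 0 to 12 pathway genes and a median of the ISGs of 0.093 to 0.45. No gene was DE without MCF10A replicate 1, no ISG was lower without MCF10A replicate 2 either, and the median was lowest without G12V replicate 2. In these fits the lone library of a group is assumed to vary like the other group. With the replicate block 12 ISGs were higher (beside 14.4% of all genes) and 7 lower (beside 14.5%). Pathway genes that were DE then numbered 22, and DE genes of all genes rose from 1575 to 4158 (28.9%). MCF10A and G12V libraries of the same number deviated together (r = 0.49) and those of different numbers did not (r = -0.49). With 2 libraries a group these are 1 value with its sign changed. The sources used here do not say whether the numbers pair these libraries. In the Nutlin-3a experiment the block gave 1 ISG, TRIM22, raised the DE genes of all genes from 23 to 165 and changed no other call of the ISGs or pathway genes. The omission of 1 library gave a median of -0.11 to 0.046 there, and 7 to 11 DE genes of all genes, while DESeq2, the exact test and the lack of a filter gave 88, 84 and 99. DE genes of all genes between G12V and MCF10A cells numbered 2536 with the exact test, and 0 to 2129 when 1 library was left out. Of 464 values of single ISGs in G12V cells under the alternatives, 425 kept their side of the threshold, 15 lost and 24 gained a call, and none that was called changed sign, and of 478 values with Nutlin-3a 477 kept their side and 1 gained a call. Sign changes of ISGs not called numbered 13 and 39. Other scaling factors changed no ISG call. The cause of these changes was not tested.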

Other observations

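The parental cells of the 2 tables can be set side by side only as values, since the tables were normalized separately and rest on different annotations, and no test was run. Their cell markers differed too. The 7 epithelial markers summed to 6637 to 8243 CPM in the untreated libraries and to 3368 to 5745 CPM with DMSO. KRT14, KRT17, KRT18 and TP63 were lower with DMSO without overlap, while KRT5, EPCAM and CDH1 overlapped. CD68 had 12.3 and 12.1 CPM untreated and 0 reads in each DMSO library. The part of these marker differences in the ISG levels was not tested. BST2 had 18.4 to 24.1 CPM in the untreated MCF10A libraries, 60.2 to 61.1 CPM in G12V cells and 79.3 to 89.3 CPM in MCF10A cells with DMSO. ISG15 had 2.0 to 2.51, 6.63 to 6.73 and 4.48 to 8.93 CPM in the same order, and SAMD9L had 0.793 to 1.18, 3.68 to 4.82 and 2.70 to 3.43 CPM. For these 3 genes, all higher in G12V cells, the parental cells with DMSO were thus above the untreated parental cells too. IFI44L had 5.91 to 6.87, 26.8 to 40.8 and 1.81 to 4.36 CPM, and UBE2L6 had 16.7 to 22, 37.2 to 55.7 and 20.0 to 21.1 CPM, so that with DMSO both were near or under the untreated parental level. HERC5, lower in G12V cells, had 2.27 to 2.29, 0.401 to 0.599 and 5.19 to 8.02 CPM. OAS2 had 1.32 to 3.04, 0.342 to 0.357 and 0.307 to 0.830 CPM.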
